A study of Rattus norvegicus with 2 samples.

Results

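A set of 10 genes of elastic fibres and of collagen cross-linking was examined in urinary bladders of male rats of the inbred F344 strain. The genes were chosen by name as the elastic fibre proteins Eln, Fbn1, Fbln1, Fbln2, Fbln5, Mfap4 and Mfap5 and the lysyl oxidases Lox, Loxl1 and Loxl2. Earlier results of these data were known when the genes were chosen. These 10 genes were taken from 22093 genes that had a probe set carrying a single gene symbol, and for Mfap4, the 1 gene among them with 2 such probe sets, the one with the higher mean signal was used. The DMA-tumor array held pooled RNA of 6 bladder tumors from rats that drank water with 200 ppm dimethylarsinic acid (DMA), which the body forms from arsenic, for 2 years, starting at 10 weeks of age. The Control array held pooled RNA from the bladders of 5 rats of the same age (114 weeks) given 0 ppm. The labels call the Control material epithelium, whereas the methods of the study speak of bladder tissue and of fewer tumors than the labels. The tumors had not been examined by histology, and the study takes them to be carcinomas by their size. With 1 array per group there is no replicate error and no p-value for any difference given here, and precision is limited by the number of arrays.

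Elastic fibres let stretched tissue recoil, and in the bladder they lie in the wall, around muscle bundles and vessels, rather than in the epithelium. They are built on a scaffold of fibrillin microfibrils, on which soluble elastin is placed with the help of fibulins and microfibril-associated proteins. Lysyl oxidases, which are secreted copper enzymes, then oxidise lysines in elastin and collagen so that neighbouring chains cross-link. Fibroblasts and smooth muscle cells are the usual sources of these proteins.

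All 10 genes had a lower signal on the DMA-tumor array than on the Control array, but by very different amounts. The fibulins Fbln5 and Fbln1 and, by the brighter of its 2 probe sets, microfibril-associated protein 4 (Mfap4) were more than 10-fold lower, fibrillin-1 (Fbn1) was at least 4.23-fold and Mfap5 at least 3.91-fold lower, and elastin itself (Eln) was within 2-fold. Of the 10 genes, 9 reached a signal of 100 on 1 or both arrays and are called measured here. The study removed signals under 100, whereas here a gene was kept if either array reached that limit. Among the 9 measured genes, 5 met the criteria of the study for a lower gene (ratio 0.5 or less and Z-score -2 or less), compared with 2.37% of all 12074 measured genes, and 0 met those for a higher gene (background 2.53%). By the ratio alone, 6 were at least 2-fold lower against a background of 10.5%, and 0 at least 2-fold higher against 8.87%. The Z-score was taken over all measured genes and required a 4.31-fold lower signal, counted on the signals as deposited, also where they were under 100. The median log2 difference (DMA-tumor minus Control) of the 9 genes was -2.28, compared with -0.082 over all measured genes. Of the 9 genes, 5 passed the signal limit only through the Control array and so had to be lower, and these counts are therefore descriptions. With no limit on signal, 5 of the 10 genes were called lower against 2.25% of 22093 genes, and 57.8% of those genes had a difference below 0. Of the 4 genes that reached 100 on both arrays, 2 were called lower, Mfap4 and Fbln1, against 2.34% of 10745 genes.

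**Figure D1:**
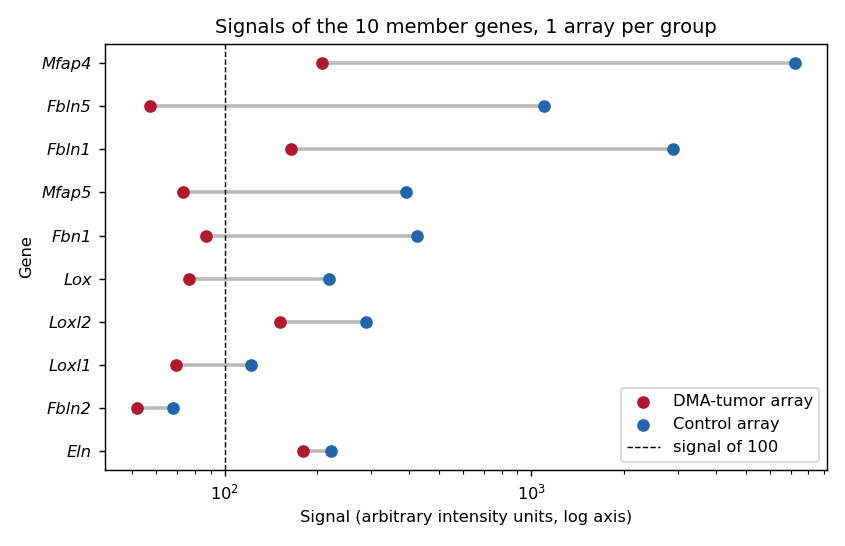
Signal of each of the 10 genes on the DMA-tumor array (red) and on the Control array (blue), on a log axis, 1 array per group, ordered by log2 difference. The dashed line marks a signal of 100; 6 genes lie below it on the DMA-tumor array and 1, Fbln2, lies below it in both.

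As a gauge of noise, 1275 olfactory and vomeronasal receptor genes, taken as silent in the bladder, had log2 differences between -0.81 and 0.52 over their central 95%, with a standard deviation of 0.34. Eln and Fbln2 lay within this range, Loxl1 and Loxl2 just below it, and the other 6 genes well below it. The gauge describes low signals on these 2 arrays and does not replace the spread between animals. Where 1 of the signals was under 100, it was set to 100 for the fold, which is then written as "at least".

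Both arrays carried strong urothelial signals, with the uroplakin gene Upk2 at 107621 on the DMA-tumor array and 523348 on the Control array. The Control array also carried signals of connective tissue and muscle, which its label of epithelium does not name. The marker counts that follow stand beside 2.37% of all measured genes called lower and 2.53% called higher. Of 8 fibroblast markers, 8 were called lower and 0 were under 100 on the Control array, and their summed signal was 1656 on the DMA-tumor array and 152643 on the Control array. Of 8 smooth muscle markers, 7 were called lower and 0 were under 100 on the Control array, with summed signals of 4400.5 on the DMA-tumor array and 56664 on the Control array. The median log2 differences of these lists were -6.10 and -4.06, both lower than that of the elastic fibre genes. The part of fibroblasts and muscle in the results below was not tested, and in pooled tissue RNA fewer cells of a type cannot be told apart from less RNA per cell. In the other marker lists, 1 of 7 endothelial genes was called lower (Plvap) and 0 higher (median 0.026), 0 of 3 measured pericyte genes met the criteria (median 0.38), and 2 of 6 measured urothelial genes were called lower (Krt20 and Upk2) while the differences of all 6 were negative (median -1.73). With a loess trend over signal removed, 5 of the 6 urothelial genes were called lower (median -2.74), and under quantile normalization 3 were (median -2.45). Over all genes, 2.34% and 2.33% were called lower under these 2 settings. Of 6 macrophage genes 1 was called lower (Laptm5, median -1.33), of 4 measured adipocyte genes 3 (median -2.40) and of 3 measured mesothelial genes 0 (median -1.59, but -0.84 over 4 genes with no limit on signal). Under 1 or more alternatives the calls of Laptm5, Lpl and Adipoq were lost, Vwf was called higher, and Upk1b and Lrrn4 were called lower. No probe set of any gene was at 0 on either array, so a marker above 0 does not show that its cell type was present. On the DMA-tumor array, 3 of 8 fibroblast, 3 of 8 smooth muscle and 2 of 6 macrophage markers were under 100. The same held for 1 of 7 endothelial and 1 of 6 urothelial markers.

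The microfibril genes came first by role. Fbn1, which encodes the fibrillin that forms the backbone of the microfibril, had a signal of 87.3 on the DMA-tumor array and 423 on the Control array. This was at least 4.23-fold lower (log2 difference -2.28), and both criteria were met. Mfap5, whose product is bound along fibrillin microfibrils, had a signal of 73.2 on the DMA-tumor array and 391 on the Control array, at least 3.91-fold lower (-2.42), and met both criteria too. Fbn1 and Mfap5 differed from each other by only 0.14 on the log2 scale, less than the standard deviation of the receptor genes. With signals under 100 raised to 100, Fbn1 still met the criteria at -2.08 and Mfap5, at -1.97, did not.

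Mfap4, a fibrinogen-domain glycoprotein that binds elastin and fibrillin and is a ligand of integrins, had 2 probe sets that gave different sizes. By the brighter one, its signal was 208 on the DMA-tumor array and 7210.03 on the Control array, 34.6-fold lower (log2 difference -5.11), and only 22 of the 12074 measured genes had a more negative difference. The other had a signal of 126 on the DMA-tumor array and 258 on the Control array, 2.05-fold lower (-1.04). With the mean of both taken, the difference was -3.08 and the call was kept, but Fbln5 and Fbln1 then had more negative values than Mfap4. By the log2 difference of the brighter probe set over the 2 arrays, the 3 genes nearest to Mfap4 among 10741 genes that reached 100 on both were Thbs2 (-5.06), Foxf1 (-5.02) and Creb3l1 (-4.90). Thbs2 had signals of 272 on the DMA-tumor array and 9067 on the Control array, and Foxf1 had signals of 276 on the DMA-tumor array and 8934 on the Control array. Thbs2 encodes a matricellular thrombospondin and Foxf1 a forkhead transcription factor of mesenchyme.

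The 3 fibulins did not behave alike. Fbln5, which carries elastin to the microfibril and also binds integrins, had a signal of 57.3 on the DMA-tumor array and 1102 on the Control array. It was at least 11.0-fold lower (log2 difference -4.27). Fbln1, a fibulin of elastic fibres and basement membranes, had a signal of 165 on the DMA-tumor array and 2902 on the Control array, 17.6-fold lower (-4.14). The order of Fbln5 and Fbln1 was not settled, since Fbln5 was at -3.46 with its low signal raised to 100. Fbln2, which is found where elastin meets the microfibrils and in vessel walls, was under 100 on both arrays, at 52.0 on the DMA-tumor array and 67.8 on the Control array. No fold is given for Fbln2, whose difference (-0.38) lay within the range of the receptor genes.

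Eln, the gene for the elastic core itself, had a signal of 180 on the DMA-tumor array and 223 on the Control array. It was 1.24-fold lower (log2 difference -0.30), within the range of the receptor genes, and 4257 of the 12074 measured genes had a more negative value. Under quantile normalization, the setting that moved it most, Eln was at -0.65. The genes nearest to Eln in log2 difference, Eif4g1, Tank and Psapl1, all rounded to the same -0.30.

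The lysyl oxidases had negative differences, smaller in size than those of Fbln5 and Fbln1. Lox, which acts on both collagen and elastin, had a signal of 76.5 on the DMA-tumor array and 218 on the Control array, at least 2.18-fold lower (log2 difference -1.51). It met the 2-fold criterion and not the Z-score. Loxl2, known for cross-linking type IV collagen of basement membranes, had a signal of 151 on the DMA-tumor array and 290.0 on the Control array, 1.92-fold lower (-0.94). Loxl1, which binds fibulin-5 and serves elastin, had a signal of 69.4 on the DMA-tumor array and 122 on the Control array, at least 1.22-fold lower (-0.82). None of the 3 met both criteria. Under quantile normalization both Loxl2 (-1.25) and Loxl1 (-1.05) reached a 2-fold difference, but the median of all genes then moved by -0.27 and 16.4% of them were at least 2-fold lower. With signals under 100 raised to 100, Loxl1 was at -0.29, within the range of the receptor genes.

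**Figure D2:**
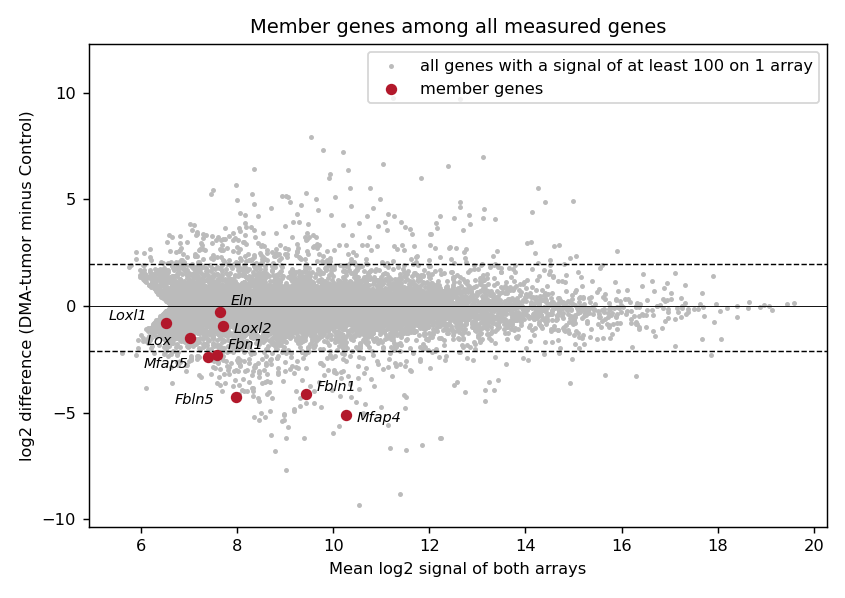
Log2 difference (DMA-tumor minus Control) against the mean log2 signal of both arrays for all 12074 measured genes (grey) and the 9 measured elastic fibre and cross-linking genes (red). The dashed lines mark the called genes nearest to 0, at -2.11 and 1.97; Mfap4, Fbln5, Fbln1, Mfap5 and Fbn1 lie below the lower one.

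Promoter sequences are shown because the study examined promoters. Whether the 10 genes share regulation was not tested. RefSeq entries on the GRCr8 build, of 250 bases before and 50 bases after a start site, matched 5 of the 10 genes, namely Fbn1, Fbln2, Mfap5, Fbln5 and Loxl1; Eln, Fbln1, Mfap4, Lox and Loxl2 were not matched. The stretches below lie before the outermost annotated start of the gene, on the strand of the gene and 5′ to 3′. Capitals mark a match, on either strand, to the TATA box TATAAA, to the AP-1 motif TGANTCA, to the antioxidant response element core TGACNNNGC, to the SMAD-type motif CAGACA or to the Sp1-type motif GGGCGG. Fbn1 and Fbln2 are not shown because too few bases lay before that start. Of the genes shown, Mfap5 and Fbln5 met both criteria and Loxl1 did not.
Mfap5, chr4:157399669-157399918, plus strand: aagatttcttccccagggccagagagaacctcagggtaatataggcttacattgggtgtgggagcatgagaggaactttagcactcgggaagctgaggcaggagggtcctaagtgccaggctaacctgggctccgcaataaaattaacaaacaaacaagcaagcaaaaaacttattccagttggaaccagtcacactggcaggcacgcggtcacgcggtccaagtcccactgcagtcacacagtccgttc
Fbln5, chr6:126742848-126742956, minus strand: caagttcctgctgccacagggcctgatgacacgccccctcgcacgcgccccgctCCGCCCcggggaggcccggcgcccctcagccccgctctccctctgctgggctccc
Loxl1, chr8:67612225-67612474, minus strand: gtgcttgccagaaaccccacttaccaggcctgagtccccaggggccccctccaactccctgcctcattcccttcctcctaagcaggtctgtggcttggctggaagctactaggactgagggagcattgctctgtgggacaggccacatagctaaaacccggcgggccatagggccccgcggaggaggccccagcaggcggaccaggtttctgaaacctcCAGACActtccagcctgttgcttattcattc

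Over the full 300 bases, the CpG counts were 28 for Fbn1, 18 for Fbln2, 14 for Fbln5, 8 for Mfap5 and 6 for Loxl1, compared with a median of 7 over 33469 promoters. Fbn1 thus lay well above the median and Mfap5 near it; Mfap4 and Fbln1, which also met both criteria, were not looked at. GGGCGG was found in the promoters of Fbln2 (3 matches) and Fbln5 (1 match) and in 33.1% of all promoters. CAGACA was found in Fbn1 and Loxl1 (1 match each) and in 21.1% of all. The TATA box, the AP-1 motif and the antioxidant response element core were found in 0 of the 5 and in 14.2%, 7.33% and 12.1% of all promoters. The AP-1 and antioxidant motifs can share bases. A match is a description of letters and not of a bound site, and promoter methylation was not analysed here.

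Genes that work with the 10 were compared next, by lists chosen for their function with earlier results of these data known. The counts below stand beside 2.53% of all measured genes called higher and 2.37% called lower. By the ratio alone, 8.87% were at least 2-fold higher and 10.5% at least 2-fold lower. Of 17 other microfibril and elastic fibre genes 10 were measured. Among these, 1 was called higher and 0 lower, 2 were at least 2-fold higher and 2 at least 2-fold lower, and the median was -0.22, against -0.082 over all measured genes. The 1 called was Ltbp1, which encodes a latent TGF-beta binding protein that anchors the growth factor to microfibrils, with signals of 788 on the DMA-tumor array and 99.6 on the Control array, at least 7.88-fold higher. The related genes Ltbp3 and Ltbp4 had log2 differences of 1.16 and -1.12. Efemp2, encoding the fibulin that brings Lox to elastin, had a signal of 67.9 on the DMA-tumor array and 209 on the Control array, at least 2.09-fold lower without meeting the Z-score. Efemp1, a further fibulin gene, kept a strong signal in both, at 8065 on the DMA-tumor array and 9626 on the Control array (-0.26). Mfap2, a microfibril gene, is listed by the study as hypermethylated and downregulated in the tumors, a list chosen in part on these arrays. Mfap2 was at 83.6 on the DMA-tumor array and 145 on the Control array. It was at least 1.45-fold lower (-0.80, or 1.74-fold on the signals as deposited) and met neither the ratio nor the Z-score. The study lists Mfap2 with a change of the same size, 1.7-fold lower.

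Of the other lysyl oxidases, Loxl4 was called higher and Loxl3 was not called. Loxl4 had a signal of 1213 on the DMA-tumor array and 227 on the Control array, 5.34-fold higher (log2 difference 2.42), and met both criteria, unlike Lox, Loxl1 and Loxl2, whose differences were negative. Loxl3 was at 64.5 on the DMA-tumor array and 110.1 on the Control array, and its difference (-0.77) lay within the range of the receptor genes. Of 8 measured genes of other lysyl oxidases, their activators and their copper supply, 3 were called higher and 0 lower (median 0.41, against -0.0080 over 10 genes with no limit on signal). Besides Loxl4 these were fibronectin (Fn1), a matrix scaffold that binds Lox, at 34760.2 on the DMA-tumor array and 1183 on the Control array (29.4-fold higher), and periostin (Postn), which binds Bmp1, at 711 on the DMA-tumor array and 82.7 on the Control array (at least 7.11-fold higher). Bmp1, the protease that releases active Lox from its precursor, had a log2 difference of 1.01 and did not meet the Z-score. The copper pump gene Atp7a was at -0.18 and the copper chaperone gene Atox1 at -1.17.

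The collagen substrates of the lysyl oxidases were split by type. Of 7 genes, 3 were called lower and 0 higher, with a median of -0.80. Col1a1, Col1a2 and Col3a1, the chains of the main fibrillar collagens, were 92.8-fold, 108-fold and 47.2-fold lower, and these 3 genes also stand among the fibroblast markers. Col5a1 (-0.80) and Col5a2 (-0.50), chains of a collagen that starts fibrils, did not meet the criteria. Col4a1 and Col4a2, the basement membrane chains, had positive differences of 0.86 and 0.48, at signals of 160.2 and 147 on the DMA-tumor array and 88.0 and 105 on the Control array. The differences of these collagen genes thus ran from -6.76 to 0.86 within 1 list.

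Enzymes that hydroxylate and process collagen before it is cross-linked were mostly within 2-fold. Of 15 measured genes, 1 was called higher and 1 lower (2.53% and 2.37% over all measured genes), and the median was -0.24. By the ratio alone, 2 were at least 2-fold higher and 3 at least 2-fold lower (8.87% and 10.5% over all). P3h2, a prolyl 3-hydroxylase active on basement membrane collagen, was at 2712 on the DMA-tumor array and 188 on the Control array, 14.4-fold higher. Adamts2, which removes the amino-terminal propeptide of fibrillar collagen, was at 99.8 on the DMA-tumor array and 436 on the Control array, at least 4.36-fold lower, a call lost with a loess trend removed (-2.22) and under quantile normalization (-2.36). Serpinh1, the collagen chaperone, had a log2 difference of -1.51 and P4ha1, a prolyl 4-hydroxylase subunit, one of 1.55, which was called higher with no limit on signal. The lysyl hydroxylase gene Plod1 was at -0.49, and Plod2 was under 100 on both arrays.

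**Figure D3:**
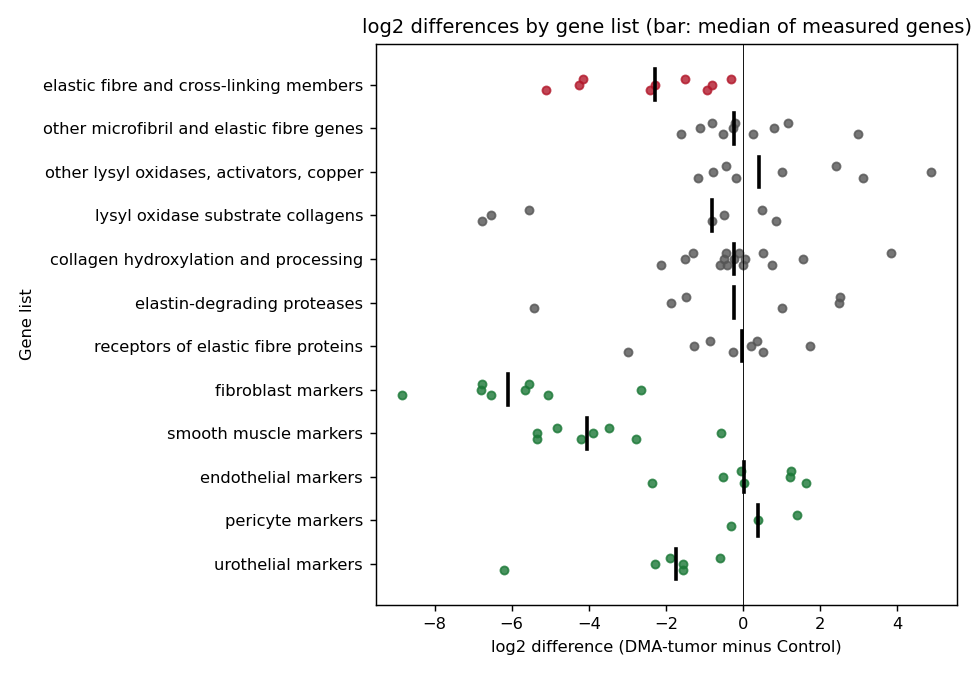
Log2 difference (DMA-tumor minus Control) of each measured gene, by list, with 1 point per gene and a black bar at the median of the list. Elastic fibre and cross-linking genes are red (median -2.28), lists of related function grey (medians from -0.80 to 0.41) and cell type markers green. Green medians are -6.10 (fibroblast), -4.06 (smooth muscle), 0.026 (endothelial), 0.38 (pericyte) and -1.73 (urothelial). Col1a1, Col1a2 and Col3a1 are drawn in both the collagen and the fibroblast list. Over genes that reached 100 on both arrays, the collagen median was -5.56 and that of the elastic fibre and cross-linking genes -2.54.

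Proteases able to cleave elastin went both ways. Of 6 measured genes, 2 were called higher and 1 lower, and the median was -0.23. The median had no stable sign, since it was 0.33 over 8 genes with no limit on signal and 2.50 over the 3 genes that reached 100 on both arrays. The macrophage elastase gene Mmp12 was at 849.9 on the DMA-tumor array and 151 on the Control array, 5.65-fold higher, and the lysosomal cathepsin gene Ctsl was at 16174 on the DMA-tumor array and 2840.03 on the Control array, 5.70-fold higher. Mmp2, a gelatinase of stromal cells, was at 74.4 on the DMA-tumor array and 3181 on the Control array, at least 31.8-fold lower. The other cathepsin genes had negative differences, -1.88 for Ctsk and -1.48 for Ctss, outside the Z-score criterion. Ctsk was called lower with no limit on signal, with a limit of 32 on 1 array and with Z-scores within signal bins.

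Receptors of elastic fibre proteins showed no common direction, with 0 of 8 measured genes called higher, 1 called lower and a median of -0.016. The 1 called was Neu1, the sialidase of the elastin receptor complex, at 335 on the DMA-tumor array and 2663.5 on the Control array, 7.95-fold lower. The other subunits of that complex, Ctsa and Glb1, were at -0.85 and -0.25. Among integrin subunits, Itgav, which pairs with several beta chains to bind fibrillin and fibulin-5, had a log2 difference of 1.75 and Itgb5 one of -1.28. Itgav was called higher with no limit on signal, with a limit of 32 on 1 array and over the genes that reached 100 on both arrays. Itgb1, at 0.36, took the opposite sign with a loess trend removed (-0.30) and under quantile normalization (-0.27).

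**Figure D4:**
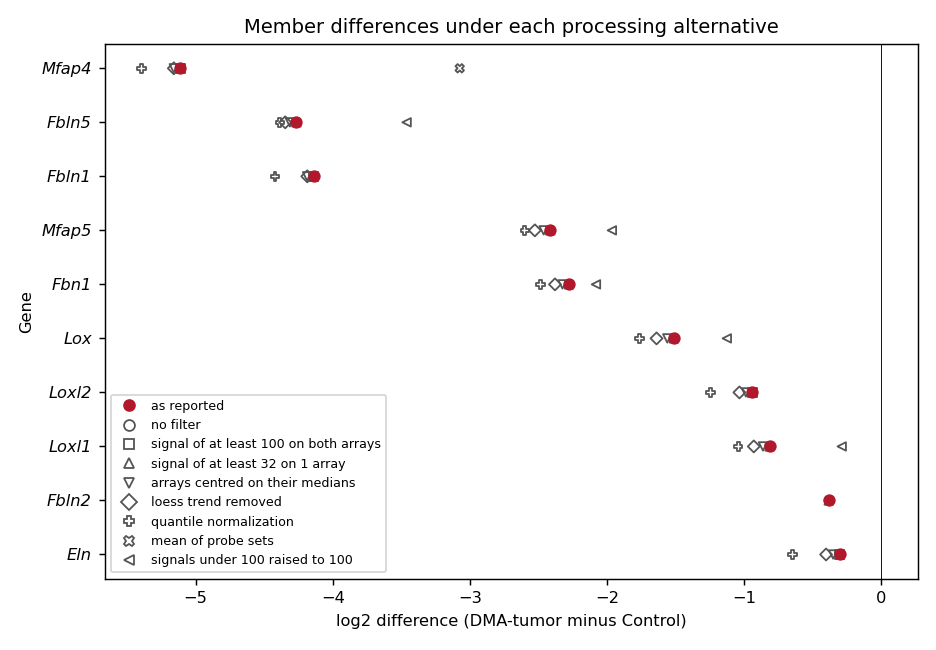
Log2 difference (DMA-tumor minus Control) of each of the 10 genes as reported (red) and under each processing alternative that gave it a value (open symbols). All 79 values lie below 0, but many repeat the reported value, since another signal limit leaves a difference as it is. The widest range is that of Mfap4, from -5.40 to -3.08, where the mean of its probe sets is the outlying setting.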

How the data were processed

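Per the labels, TRIzol-extracted RNA was biotin-labelled with a whole-transcript kit. Each deposited value is a linear-scale intensity of a probe set (5.60 to 820532). The processing notes of the submitters name RMA and Affymetrix Expression Console 1.4.1, whereas the methods of the study name a 3'-based array and global median normalization, so which normalization the authors applied is unsettled. The column medians were 52.3 (DMA-tumor) and 50.6 (Control). There were 0 columns of other series.

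Of 68842 probe sets, 23446 had 1 gene symbol in the platform annotation, 505 several and 44891 none listed. Symbols were checked by Entrez ID against RefSeq (22077 found, 1 updated). The probe set with the highest mean log2 signal was taken for each gene. Log2 of each value was taken with no further normalization, and 12074 genes reaching 100 on 1 or both arrays were kept. No test could be made, since each group had 1 array. The Z-score was the difference minus the mean over kept genes, divided by their standard deviation (1.02). The calling step was run on simulated differences with large planted shifts and a smaller spread than the real data. That run did not cover the signal limit or the choice of probe sets.

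The genes and lists were chosen with earlier results of these data known. All 10 genes were named, as were called genes of each related list and a few fixed ones; other list genes were named after their values were seen. The alternatives were no signal limit, a limit of 100 on both arrays or of 32 on 1, a loess trend (span 0.3) removed, median centring of the arrays, quantile normalization, the mean of probe sets, signals under 100 raised to 100, and Z-scores within 10 signal bins. The software was pandas 2.3.3 and numpy 2.4.6 under Python 3.11.15, with statsmodels 0.14.6 for loess and matplotlib 3.10.9 for plots.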

Additional observations from a re-analysis of the deposited data

How the results depend on the processing

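Of 9 alternatives, 8 gave differences of single genes (Z-scores within signal bins leave them as they are). Under these 8, all differences of the 10 genes kept their negative sign, and 68 of 69 values kept their side of the criteria. The exception was Mfap5 with signals under 100 raised to 100 (-1.97). Many of these values could not have changed sign. Another signal limit leaves each difference as it is, and the mean of probe sets altered only Mfap4. Raising low signals cannot turn a sign, and median centring moves all genes by the same small amount. The sign was thus mainly open to change with a loess trend removed and under quantile normalization. The median log2 difference of the genes was -1.90 with no limit on signal and with a limit of 32 on 1 array, both over 10 genes since Fbln2 then entered. Requiring signals of 100 or more on both arrays left 4 genes (median -2.54). Of these, 2 were called lower (2.34% of 10745 genes) and 2 were at least 2-fold lower (8.83%). The counts fell because Fbn1, Fbln5, Mfap5 and Lox, with signals under 100 on the DMA-tumor array, were left out. Among the other alternatives the median ran from -2.49 to -1.97. By the ratio alone, 7 genes were at least 2-fold lower with a loess trend removed (13.5% of all genes) and 8 under quantile normalization (16.4% of all genes), compared with 6 (10.5%) as reported. Those settings moved the median of all genes by -0.12 and -0.27. For the related lists, the alternatives were chosen after seeing the data, and 4 medians changed sign. Those of lysyl oxidase partners and of proteases are given in the report; that of other microfibril genes was 0.032 over 6 genes that reached 100 on both arrays, and that of endothelial markers fell between -0.18 and -0.022 under the 3 scalings. The collagen median was -5.56 over the 5 genes that reached 100 on both arrays. No paired analysis was possible because each group had 1 array. Signals near or under 100 limit what can be said of Eln, Fbln2, Loxl1 and Loxl2. Fbn1, Mfap5, Fbln5 and Lox were also under 100 on the DMA-tumor array, so their folds are lower bounds.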
